A study of Arabidopsis thaliana with 9 samples.

Results

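Cytochrome P450 genes were followed in whole roots of Arabidopsis thaliana seedlings. They were taken as the genes whose symbol or synonym is CYP followed by a family number, a subfamily letter and a gene number, and cyclophilins, which share the stem, were left out. Of 251 such genes in the TAIR10.1 gene table, 23 were on a named probe set with 1 gene, out of 13513 such probe sets and 22746 probe sets in all. Only 14016 of the 22746 probe sets had a name in the annotation used here, and unnamed ones may hold further P450 genes. The selection is therefore a small part of the superfamily and is weighted to 1 branch of it. CYP71B genes made up 19 of the 23, out of 37 in the gene table, and the others were CYP78A9, CYP79A2, CYP84A4 and CYP51G2. All but CYP51G2 belong to the clan of CYP71. CYP51G2 and CYP71B27 are annotated as transcribed pseudogenes, and the name CYP71B30P carries a suffix used for pseudogenes.

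The roots came from seedlings 7 days after germination, with 3 arrays in each of 3 groups. All were grown at 22 °C with 16 h of light and 8 h of dark. Every group carried ga1-3, a mutant allele of the gibberellin synthesis gene GA1, and the comparison group was ga1-3 alone. The second group also carried scl3-1, a loss-of-function allele of the GRAS protein gene SCL3, and the third overexpressed SCL3 (SCL3 OE). The sources used here give neither the promoter of the overexpression construct nor the number of lines, and every statement holds for gibberellin-deficient roots, since no group had an intact GA1. Values are MAS5 signals, a linear measure of brightness per probe set, and since it depends on the probe set, no gene's level is set against another's.

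P450 enzymes are haem-containing oxygenases, most of them anchored in the endoplasmic reticulum, that take electrons from a P450 reductase to hydroxylate or otherwise oxidise small molecules. In plants they act in the synthesis and breakdown of hormones, among them gibberellins, and in the synthesis of lignin, sterols, glucosinolates and many defence compounds. CYP71B genes form a subfamily that expanded largely by tandem duplication in the Arabidopsis lineage. Its best known member, CYP71B15 (PAD3), makes the phytoalexin camalexin, and for many other members no substrate is known.

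Signal was above the dim range for 8 of the 23 genes. A probe set was tested if 3 or more arrays reached the 40th percentile of that array, a signal of 106 on average. That held for 34.8% of the P450 probe sets and 56.8% of all probe sets with 1 gene. Those tested were CYP71B6, CYP71B23, CYP71B26, CYP71B28, CYP71B29, CYP71B34, CYP71B37 and CYP84A4. Of these, 7 reached the level on all 9 arrays and CYP71B28 on 8 of them, so none was tested through a single bright group. Just inside the limit, CYP71B28 ranged from 86.3 to 169, and just outside it CYP51G2 ranged from 53.1 to 109 and reached the level on 1 array. The other 14 genes reached it on no array.

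**Figure D1:**
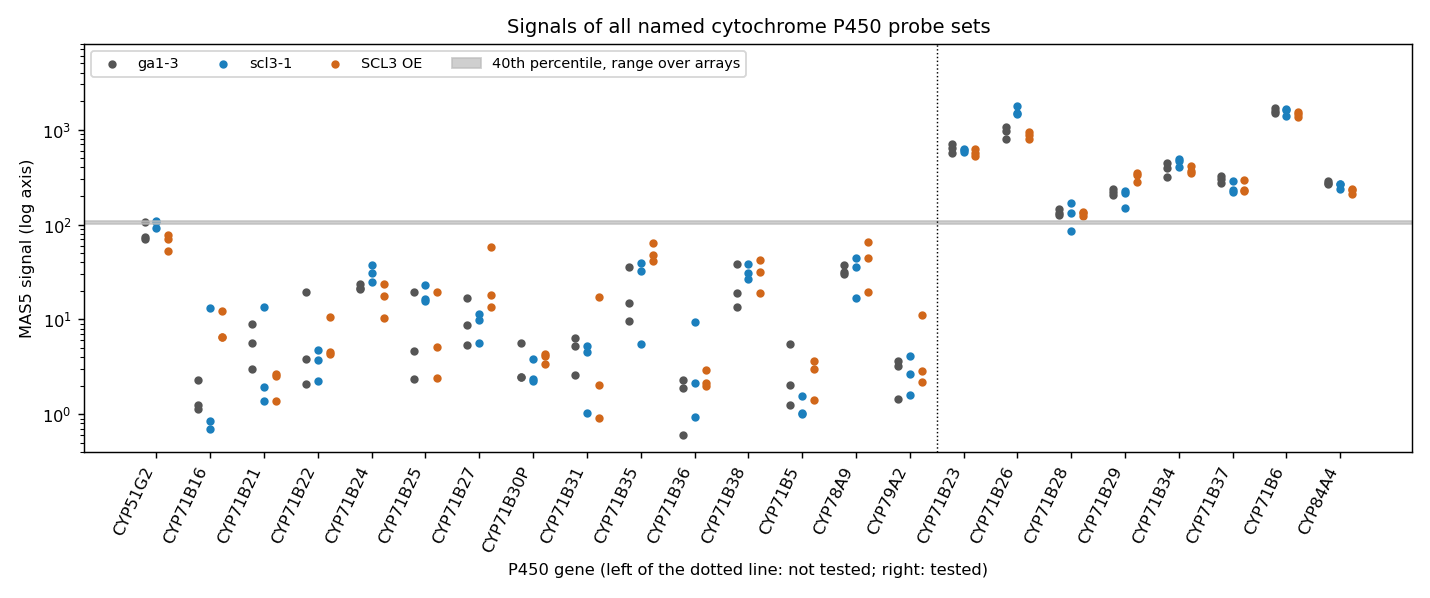
MAS5 signal (log axis) of all 23 P450 probe sets, with 1 point per array coloured by group, and a grey band for the 40th percentile over the 9 arrays. The 8 tested genes on the right lie at or above the band on 8 or 9 arrays, whereas 14 of the 15 on the left lie below it on every array.

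CYP71B26 was higher in scl3-1 roots, the only P450 gene that passed the test in that comparison. The roots of ga1-3 gave signals of 1068, 976 and 803, those of scl3-1 gave 1486, 1772 and 1462, and those of SCL3 OE gave 882, 952 and 804. Every scl3-1 array was above every array of the other 2 groups, while ga1-3 and SCL3 OE overlapped.

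Against ga1-3, the CYP71B26 signal in scl3-1 rose 1.66-fold, a log2 change of 0.73 (standard error, SE, 0.12; limma adjusted p = 0.0164). In SCL3 OE its change from ga1-3 was -0.10 (SE 0.12, limma adjusted p = 0.509; 95% interval -0.36 to 0.15). In whole roots, more RNA per cell and more cells of a type that transcribes the gene cannot be told apart. The call in scl3-1 rested on few arrays. It ended without ga1-3 replicate 2 (log2 change 0.76, limma adjusted p = 0.07), ga1-3 replicate 3 (0.62, 0.0573) or scl3-1 replicate 2 (0.65, 0.128), and with a variance model without a mean trend (limma adjusted p = 0.0557).

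CYP71B29 was higher in SCL3 OE roots. Its signals were 206, 237 and 218 in ga1-3, 149, 226 and 215 in scl3-1, and 331, 345 and 282 in SCL3 OE. All SCL3 OE arrays lay above the other 6, and the lowest value was that of scl3-1 replicate 1. The rise from ga1-3 was 1.45-fold (log2 change 0.53, SE 0.16, limma adjusted p = 0.0131), and it did not pass without SCL3 OE replicate 2 (0.47, limma adjusted p = 0.0581). From ga1-3 to scl3-1 the change was -0.19 (SE 0.16, limma adjusted p = 0.755).

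**Figure D2:**
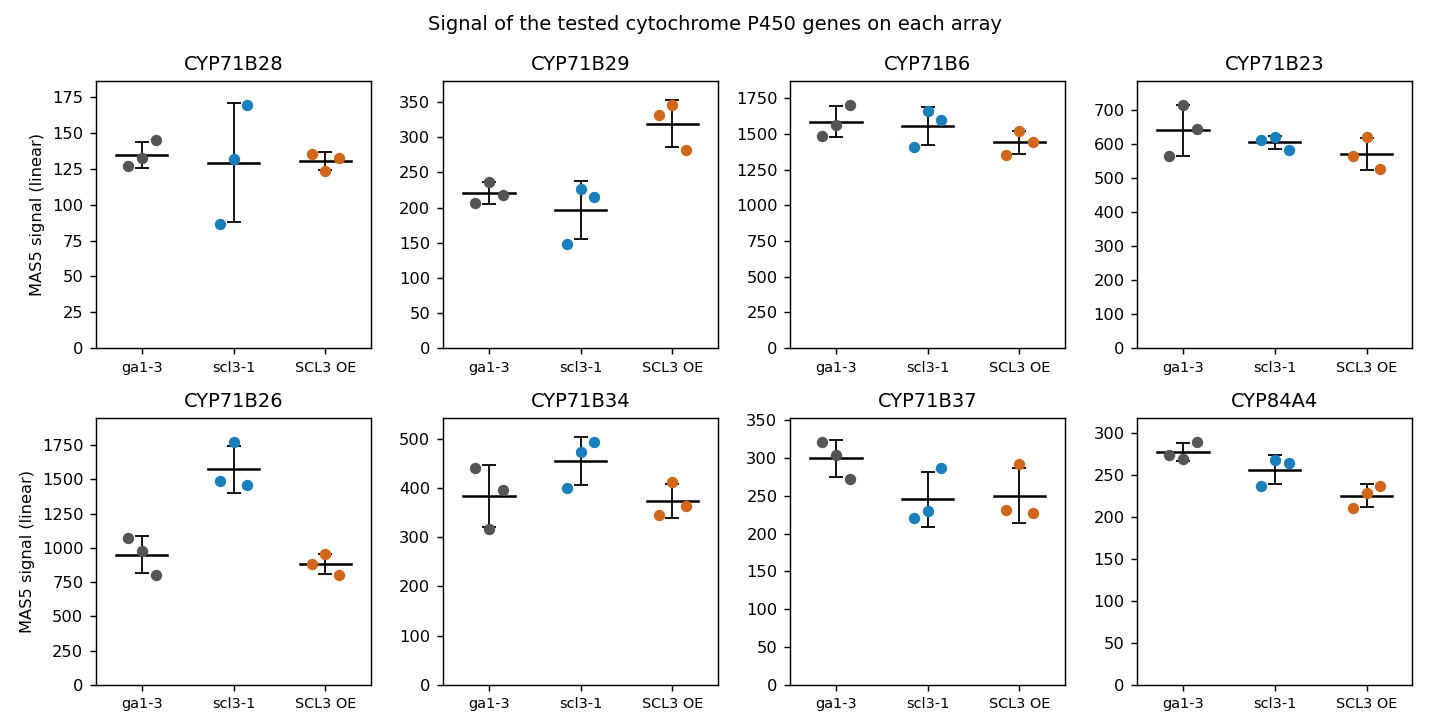
MAS5 signal (linear axis from 0) of the 8 tested P450 genes. Points are arrays, horizontal lines are means and bars are SD over 3 arrays of ga1-3, scl3-1 and SCL3 OE. CYP71B26 is highest on the 3 scl3-1 arrays and CYP71B29 on the 3 SCL3 OE arrays, and the points of ga1-3 overlap those of both other groups for 5 of the other 6 genes.

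CYP84A4 encodes an enzyme of arabidopyrone synthesis, a small branch from caffealdehyde in phenylpropanoid metabolism. It was measured at 275, 269 and 290 in ga1-3, at 237, 268 and 264 in scl3-1, and at 211, 229 and 238 in SCL3 OE. The ga1-3 arrays lay above the arrays of both other groups, by a narrow margin for scl3-1. The change in SCL3 OE was -0.30 on the log2 scale (SE 0.12) and just missed the threshold (limma adjusted p = 0.0515). The outcome depended on the setting. Quantile normalization gave -0.18 (limma adjusted p = 0.235) and median-centred arrays -0.22 (0.152), while without the mean trend the gene passed (-0.30, 0.0287). Over the fits that left out 1 array the limma adjusted p was 0.0452 to 0.163. The lowest was without scl3-1 replicate 1, which enters only through the shared spread, and the highest without SCL3 OE replicate 1. In scl3-1 the change was -0.12 (SE 0.12, limma adjusted p = 0.804).

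CYP71B6, whose enzyme oxidises indole-3-acetonitrile, did not pass in any comparison. Its signals were 1487, 1567 and 1702 in ga1-3, 1408, 1662 and 1600 in scl3-1, and 1357, 1519 and 1448 in SCL3 OE, and all 3 groups overlapped. The 95% interval of its log2 change was -0.23 to 0.18 in scl3-1 and -0.34 to 0.07 in SCL3 OE. These were the narrowest intervals of the 8 genes.

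The remaining 4 tested genes have no role assigned here. CYP71B23 was measured at 563, 713 and 643 in ga1-3, 612, 619 and 581 in scl3-1, and 564, 621 and 526 in SCL3 OE. For CYP71B34 the values were 440, 316 and 397 in ga1-3, 401, 473 and 494 in scl3-1, and 346, 413 and 363 in SCL3 OE. The groups overlapped for both genes.

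CYP71B37 gave 321, 304 and 273 in ga1-3, 220, 230 and 287 in scl3-1, and 231, 292 and 227 in SCL3 OE. CYP71B28 gave 127, 133 and 145 in ga1-3, 86.3, 132 and 169 in scl3-1, and 135, 124 and 133 in SCL3 OE. Both genes overlapped between all groups. The 95% intervals against ga1-3 of these 4 genes lay between -0.60 and 0.54 in scl3-1 and between -0.57 and 0.39 in SCL3 OE.

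In all, 1 of 8 tested P450 genes rose and 0 fell in scl3-1, against 0.538% of all 14117 tested probe sets called in either direction (0.368% higher and 0.170% lower). At an unadjusted p under 0.05 limma also gave 1, beside 10.7% of all tested probe sets. In SCL3 OE, 1 rose and 0 fell, where 43.8% of all tested probe sets were called (18.0% higher and 25.9% lower). At an unadjusted p under 0.05 there were 2 of the 8, beside 51.2% of all tested probe sets. A count of 1 among 8 genes was not tested against these shares. The median log2 change of the 8 was -0.09 in scl3-1 and -0.12 in SCL3 OE, beside 0.01 and -0.07 over all tested probe sets. Both comparisons use the same 3 ga1-3 arrays. The arrays of the compared groups did not overlap for 2 of the 8 genes in each comparison, beside 14.1% of all tested probe sets for scl3-1 and 53.6% for SCL3 OE.

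Set directly against scl3-1, SCL3 OE roots had less CYP71B26 and more CYP71B29 signal. CYP71B26 fell by 0.84 on the log2 scale (SE 0.12, limma adjusted p = 5.4e-05), from 1573 ± 173 (SD, n = 3) to 879 ± 74.2. CYP71B29 rose 1.65-fold, from 196 ± 41.9 to 320 ± 33.2 (log2 change 0.72, SE 0.16, limma adjusted p = 0.00216). The other 6 did not pass, with CYP71B34 the nearest (-0.28, SE 0.14, limma adjusted p = 0.11). At an unadjusted p under 0.05 there were 2 of the 8, beside 47.3% of all tested probe sets. Of all tested probe sets 39.2% were called in this comparison (15.5% higher and 23.6% lower), and arrays did not overlap for 52.8% of them and for 2 of the 8 P450 genes. Both calls held without any 1 array.

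**Figure D3:**
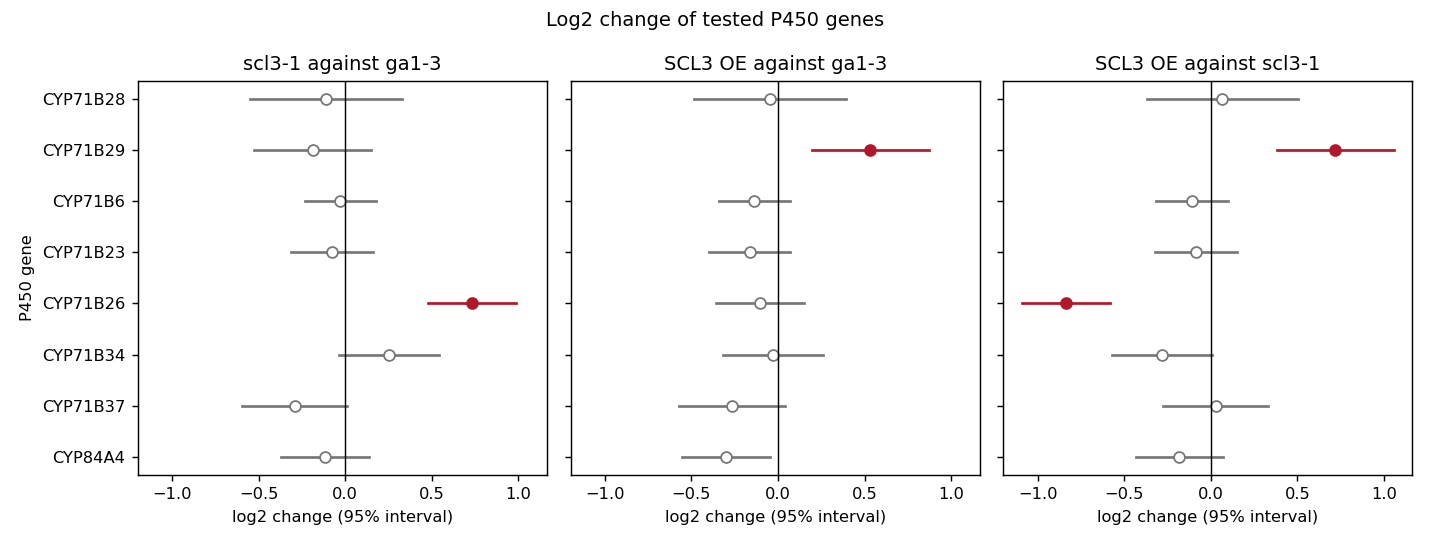
Log2 change with its 95% interval for the 8 tested P450 genes in each of the 3 comparisons, with filled red points for an adjusted p under 0.05. CYP71B26 stands at 0.73 in scl3-1 against ga1-3 and CYP71B29 at 0.53 in SCL3 OE against ga1-3, and both are filled in SCL3 OE against scl3-1.

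The selected genes lie largely in tandem groups, so the changes could be set against those of neighbours. P450 genes with at most 5 other genes between them were counted as 1 group. CYP71B25 to CYP71B37 on chromosome 3 is an unbroken run of 8 P450 genes, of which 6 were measured and 3 tested. CYP71B26 rose in scl3-1, while CYP71B34 changed by 0.25 (SE 0.14, limma adjusted p = 0.543) and CYP71B37 by -0.29 (SE 0.14, limma adjusted p = 0.492).

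On chromosome 1, CYP71B28 and CYP71B29 are adjacent. They belong to a group of 7 P450 genes among 12 genes, with 3 measured and 2 tested. CYP71B29 rose in SCL3 OE, where CYP71B28 changed by -0.05 (SE 0.21, limma adjusted p = 0.877). The difference in change between neighbours was not tested.

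Genes beyond the P450s were looked up in a window of 10 genes on either side, also chosen after the values were seen. Around CYP71B26, 4 other genes were tested, CYP71B34 and CYP71B37 among them. In scl3-1 their log2 changes were -0.29 to 0.25, and the lowest limma adjusted p was that of CYP71B37. AT3G26360, also among the 4, rose in SCL3 OE against ga1-3 (0.46, limma adjusted p = 0.0494) and against scl3-1 (0.63, 0.0116). Beside these calls, 18.0% and 15.5% of all tested probe sets were called higher. No other neighbour of CYP71B26 was called. Around CYP71B29, 4 others were tested. In SCL3 OE 1 of them, AT1G13160, rose against ga1-3 (log2 change 0.70, limma adjusted p = 0.00342) and against scl3-1 (0.60, 0.01). The shares called higher were again 18.0% and 15.5% of all tested probe sets. The other neighbours of CYP71B29 changed by -0.05 to 0.02 in SCL3 OE against ga1-3, and none was called in any comparison.

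**Figure D4:**
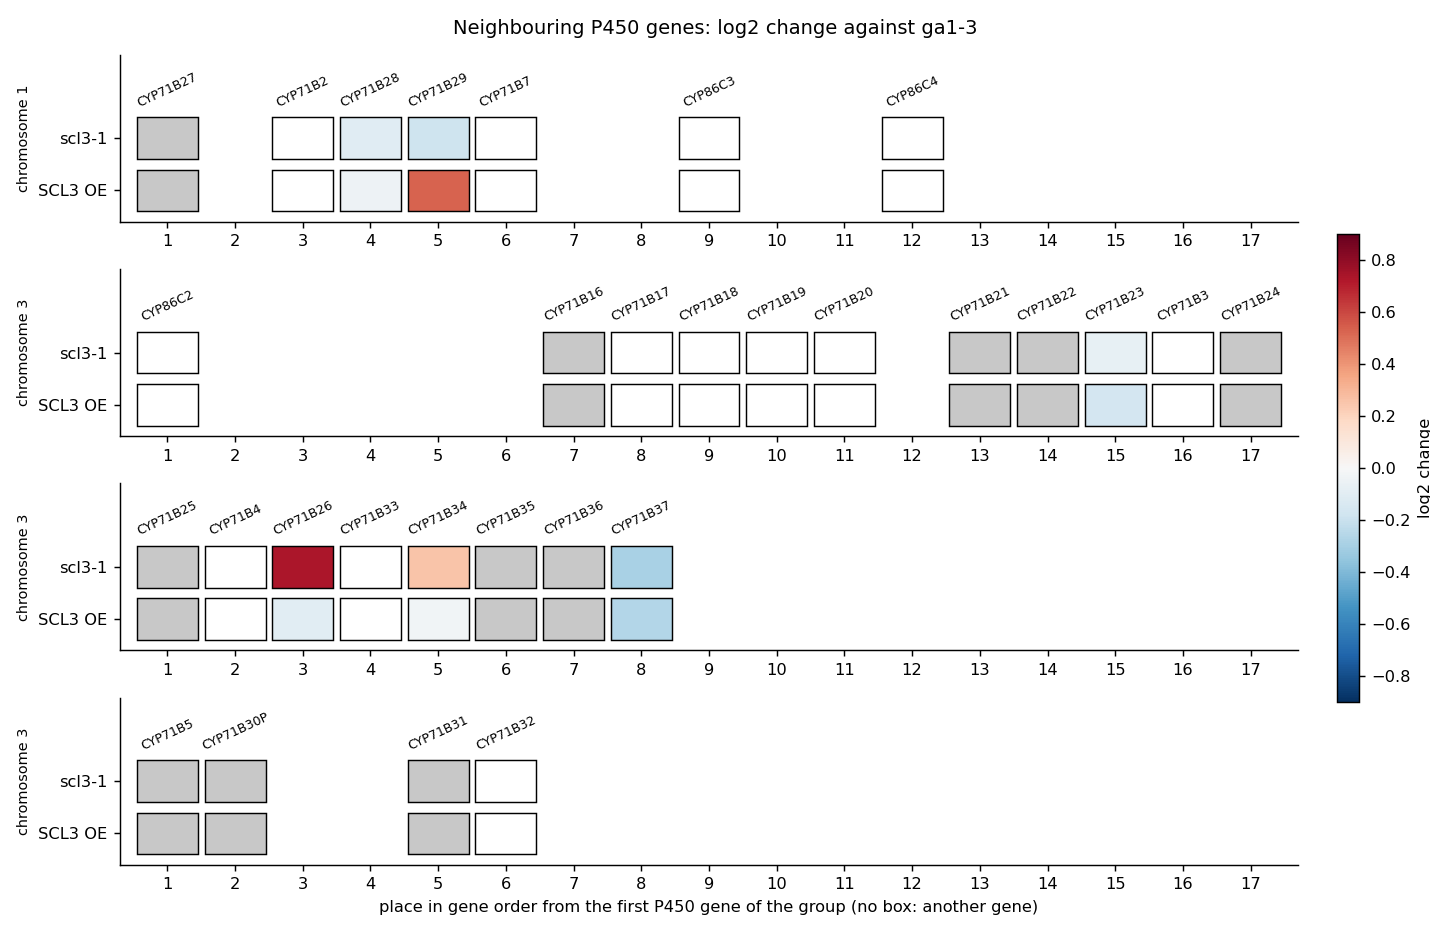
Gene order in the 4 groups of neighbouring P450 genes that hold at least 2 measured ones, with boxes coloured by the log2 change in scl3-1 and in SCL3 OE against ga1-3. Grey boxes were too dim to test, white boxes are not analysed here, and gaps are other genes. The strong red boxes are CYP71B26 in scl3-1 (0.73) and CYP71B29 in SCL3 OE (0.53). The boxes directly beside CYP71B26 are white, and that of CYP71B28 beside CYP71B29 is paler.

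The other tandem groups held mostly dim genes. CYP86C2 to CYP71B24 on chromosome 3 has 11 P450 genes among 17, with 5 measured and only CYP71B23 tested. CYP71B5 to CYP71B32 has 4 P450 genes, with 3 measured and 0 tested. One of these, CYP71B31, is known as a floral oxidase of linalool, and its signals here were 0.919 to 17.3.

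Among the 15 genes too dim to test, 8 never exceeded a signal of 20. They were CYP71B5, CYP71B16, CYP71B21, CYP71B22, CYP71B30P, CYP71B31, CYP71B36 and CYP79A2, with values from 0.598 to 19.6. CYP79A2, whose enzyme turns phenylalanine into the precursor of benzylglucosinolate, ranged from 1.45 to 11.1. CYP71B24, CYP71B25, CYP71B27, CYP71B35, CYP71B38 and CYP78A9 ranged from 2.37 to 65.7. CYP78A9, of a subfamily that promotes organ and seed growth, had values of 37.1, 31.3 and 30.0 in ga1-3, 44.6, 16.7 and 35.3 in scl3-1, and 19.5, 65.7 and 44.9 in SCL3 OE. The groups of CYP78A9 overlapped.

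With the filter removed, 0 of these 15 genes were called by limma in any comparison. Over all 22746 probe sets that fit called 0.158% in scl3-1 and 27.1% in SCL3 OE against ga1-3, and 23.9% in SCL3 OE against scl3-1. At an unadjusted p under 0.05 there were 0 of the 15 in scl3-1, beside 8.19% of all probe sets, and 2 in SCL3 OE against ga1-3, beside 37.6%, namely CYP71B16 and CYP71B35. CYP71B35 gave 35.8, 14.9 and 9.69 in ga1-3, 39.1, 5.50 and 32.3 in scl3-1, and 40.9, 47.7 and 64.6 in SCL3 OE (limma adjusted p = 0.119 against ga1-3). Its SCL3 OE values lay above all others, yet below the level at which probe sets were tested. CYP71B16 had means of 1.56 in ga1-3 and 8.47 in SCL3 OE (limma adjusted p = 0.108), both near the bottom of the scale. For SCL3 OE against scl3-1 the 2 below an unadjusted p of 0.05 were CYP71B27 and CYP51G2, beside 34.5% of all probe sets.

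CYP51G2, a pseudogene related to the sterol demethylase gene CYP51G1, gave 69.8, 74.6 and 106 in ga1-3, 109, 93.0 and 107 in scl3-1, and 69.9, 53.1 and 77.9 in SCL3 OE. The scl3-1 values lay above those of SCL3 OE, but the log2 difference of -0.63 did not pass (limma adjusted p = 0.079 without the filter).

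P450 genes of known pathways were mostly not on the named probe sets. Of 85 P450 genes listed by role in 19 lists, 3 were measured (CYP79A2, CYP84A4 and CYP78A9) and 1 was tested, CYP84A4. The P450 genes of gibberellin, brassinosteroid, abscisic acid, jasmonate, cytokinin and strigolactone metabolism and of suberin, sterol and carotenoid synthesis were not analysed here. Partner genes of these pathways were looked up in 13 lists of 242 genes, and 13 genes from 6 lists were tested. In scl3-1 limma called 0 of the 13, beside 0.538% of all tested probe sets. At an unadjusted p under 0.05 there were 2, beside 10.7%, and both were higher in scl3-1. They were UGT84A1 (log2 change 1.38, SE 0.42, limma adjusted p = 0.2) and AT3G13610 (0.35, SE 0.13, 0.3).

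In SCL3 OE 9 of the 13 partner genes were called, where the background is 43.8%. For 4 of the 9 (CCOAMT, UGT84A1, UGT84A3 and BHLH101) the dimmer of the compared groups had no array at the filter level. These 4 were tested only through the brighter groups and had to differ, so their calls add nothing to the count. The other 9 partner genes reached the level on all 9 arrays, and 5 of them were called. Beside CYP84A4, 4 of 28 listed phenylpropanoid, lignin and flavonoid genes were tested. Those called in SCL3 OE were CCOAMT, UGT84A1 and UGT84A3, all tested only through the brighter groups, so no count is read from this list. CCOAMT, whose product methylates caffeoyl-CoA in lignin synthesis, fell from a mean of 166 to 49.4. The glucosyltransferase genes UGT84A1 and UGT84A3 rose from 48.5 to 342 and from 58.3 to 125. The size of these changes rests on dim signals. CCOAMT changed by -1.74 on the log2 scale, UGT84A1 by 3.09 and UGT84A3 by 1.12, but with an offset of 50 before log2 the values were -1.11, 2.03 and 0.70. HCT, an acyltransferase gene of lignin synthesis, did not pass (0.11, SE 0.09).

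Both tested genes of the glucosinolate list, out of 30 listed, fell in SCL3 OE. There, 25.9% of all tested probe sets were called lower and 18.0% higher. BCAT4, for chain elongation of methionine, went from 4792 to 2250 (log2 change -1.09, SE 0.15), and UGT74B1, for a glucosylation step of the core pathway, from 2081 to 1275 (-0.71, SE 0.09). Of the 15 listed P450 genes of glucosinolate, camalexin and indole synthesis, CYP79A2 was measured and too dim to test, and the other 14 were not analysed here. The other lists held few genes. In SCL3 OE the sterol gene CPI1 fell (-0.43, SE 0.10), as did the jasmonate gene OPCL1 (-0.56, SE 0.15). Of 4 coumarin and iron deficiency genes, the feruloyl-CoA hydroxylase gene AT3G13610 rose (0.72, SE 0.13, or 0.44 after quantile normalization). Beside it, 18.0% of all tested probe sets were called higher. BGLU42 and PYE did not pass. BHLH101 was called higher, but it was tested only through SCL3 OE, so its call adds nothing to the count. The mean signal of BHLH101 was 212 in SCL3 OE, the one group in which it reached the filter level, beside 79.4 in ga1-3 and 82.2 in scl3-1 (log2 change from ga1-3 1.44, or 1.02 with the offset). LYC, a carotenoid cyclase gene, did not pass (0.25, SE 0.10, limma adjusted p = 0.0607), but rose after quantile normalization (0.38, 0.0114), with median-centred arrays (0.34, 0.0222) and without scl3-1 replicate 1 (0.25, 0.0488).

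Marker genes were checked for the label of whole root. The 3 root genes on named probe sets (JKD, GSO1 and EXPA7, of 21 listed) were all tested, with summed signals of 1409 to 1587 in ga1-3, 1517 to 1784 in scl3-1 and 1204 to 1321 in SCL3 OE. JKD and EXPA7 fell in SCL3 OE, where 25.9% of all tested probe sets were called lower and 18.0% higher. For JKD no SCL3 OE array reached the filter level. It was tested only through ga1-3 and scl3-1 and had to differ, so its call adds nothing to the count. EXPA7 did not pass without ga1-3 replicate 1 (limma adjusted p = 0.0942), SCL3 OE replicate 1 (0.0685) or SCL3 OE replicate 2 (0.0555), or after quantile normalization (0.103). GSO1 did not pass (0.0958), but rose after quantile normalization (0.032) and with median-centred arrays (0.0434). Photosynthesis genes were also present, as 6 of 32 listed were measured with sums of 3390 to 3454, 3594 to 4096 and 3254 to 3453 in the same order. Each sum is weighted to its brightest probe sets, so the root and photosynthesis sums were not set against each other. Of these 6, in SCL3 OE RCA and PSBY rose, LHCB4.1 and LHCB4.2 fell, and PSAE-1 and PSAN did not pass. RCA lost the call without ga1-3 replicate 1 or any 1 of the SCL3 OE arrays (limma adjusted p 0.0514 to 0.0629), and PSBY without SCL3 OE replicate 3 (0.058). Markers of pollen and anther (AMS) and of guard cells (SPCH, MUTE and FAMA) had mean signals of 2.46 to 17.2 and were not tested. The part of any of these markers in the changes of CYP71B26 and CYP71B29 was not tested. The genotypes were not checked by signal, since neither SCL3 nor GA1 was among the named probe sets.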

How the data were processed

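Whole-root RNA of 9 samples was measured on 1 array each. The deposited values are linear MAS5 signal intensities, computed in Affymetrix Expression Console 1.1 per the submitters' processing notes. Other processing steps are not given in the sources used here. Trimmed means of 496 to 497 show a common scaling of the 9 arrays. Precision is limited by 3 arrays in each group.

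The log2 of each signal was used, without rescaling. Of 22746 probe sets, 14117 reached the 40th percentile of the array on 3 or more arrays and were fitted in limma 3.58.1 (R 4.3.3) as group means over all 9 arrays, with eBayes and a mean trend. P-values were two-sided and adjusted by Benjamini and Hochberg over all fitted probe sets, with calls made at an adjusted p under 0.05. The fit and the calls, but not the filter, were tested on simulated data with independent noise and few changed probe sets. No shift in scaling was simulated. Names were taken from the probe annotation and, with gene order, from the TAIR10.1 gene table.

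By rule, called P450 genes, kept ones with a listed role, and kept ones of groups with 3 or more such genes were named, together with up to 3 genes from each partner list. All other P450 genes, and the 2 further tested partner genes HCT and BGLU42, were added after their values were seen. The P450 genes, lists and comparisons were chosen with earlier results of these data known.

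Replicate numbers are shared between groups, but same-numbered arrays did not deviate together, so they were not treated as pairs. Alternatives were no filter, a 60th percentile filter, median-centred arrays, quantile normalization, an offset of 50, no mean trend, a replicate block, only the 6 arrays compared, 1 probe set per gene, and each array left out. CYP71B probe sets may bind close relatives, which was not tested.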

Additional observations from a re-analysis of the deposited data

How the results depend on the processing

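The number of called P450 genes in scl3-1 against ga1-3 was 1, and 0 without the mean trend. Leaving out each array gave 0 to 1. In SCL3 OE against ga1-3 it was 1, but 0 with the 60th percentile filter, which left CYP71B29 untested, and 2 without the mean trend, where CYP84A4 passed. Leaving out each array gave 0 to 2. In SCL3 OE against scl3-1 it was 2, and 1 with the 60th percentile filter, again for want of CYP71B29. With the replicate block the counts were 1, 1 and 2, and it changed no P450 call. Correlations of the deviations of same-numbered arrays were -0.19 to 0.18, with 3 of 9 over 0.1. In SCL3 OE against scl3-1, median-centring moved the median of all probe sets by 0.12.

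Signs turned only for changes that passed in neither setting, and the cause was not tested. Leaving out each array gave log2 changes in scl3-1 against ga1-3 of -0.33 to 0.15 for CYP71B28, -0.30 to 0.0024 for CYP71B29, -0.076 to 0.043 for CYP71B6 and -0.16 to 0.0056 for CYP71B23. In SCL3 OE against ga1-3 the ranges were -0.087 to 0.0079 for CYP71B28, -0.17 to 0.073 for CYP71B34, -0.013 to 0.16 for BGLU42 and -0.062 to 0.13 for PSAE-1. There, quantile normalization gave 0.0025 for CYP71B26 and 0.091 for CYP71B34, and median-centring 0.037 for CYP71B28 and 0.052 for CYP71B34. Against scl3-1, leaving out each array gave -0.20 to 0.29 for CYP71B28 and -0.090 to 0.15 for CYP71B37 in SCL3 OE. Median-centring gave 0.011 for CYP71B6 and 0.034 for CYP71B23, and quantile normalization 0.051 for CYP71B23. Alternatives for genes that are no P450 were added after seeing the data.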
